A study of Danio rerio with 12 samples.

Results

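Zebrafish embryos homozygous for a mutation in lsm8 were set against embryos homozygous for a mutation in snapc3, at the level of skipped exons, retained introns and genes. Both mutants were compared with wild-type controls in the study, and a direct comparison needs events that were counted in both. Exon and intron events were therefore kept where the lsm8 table and the snapc3 table held the same gene, chromosome, strand and exon boundaries. This left 14959 of 31586 skipped exons, 713 of 768 retained introns and, from the reads of the matched exons, 8203 of 12232 genes. The comparison used 6 of the 12 libraries of the series, 3 per mutant, and the 3 wild-type libraries are given beside them. All libraries held total RNA of whole embryos, depleted of ribosomal RNA, and the stage and any pooling of embryos were not stated. The lsm8-/- embryos were all of mixed background B and the snapc3-/- embryos were all of mixed background A, whereas the wild-type controls came from backgrounds A, B and C with 1 library each. Mutation and background therefore cannot be told apart in any difference between the mutants. Nothing states that libraries of a group came from separate clutches, so each p-value measures only the spread between these libraries.

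Pre-mRNA introns are removed by the spliceosome, which is assembled from small nuclear ribonucleoproteins (snRNPs), each built on a small nuclear RNA (snRNA). LSm8 is the subunit that distinguishes the nuclear LSm ring, which binds the 3′ end of U6 snRNA, the RNA at the catalytic centre of the spliceosome. SNAPC3 is a subunit of the snRNA-activating protein complex, which binds the promoters of the spliceosomal snRNA genes transcribed by RNA polymerase II and of the U6 gene transcribed by RNA polymerase III. The mutations thus lie in a protein that stays with U6 snRNA and in a factor needed to transcribe the snRNAs. The study came from a genetic screen for zebrafish with defects in early T cell development.

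The matched exons held 6258211 to 7960173 junction reads in the lsm8 libraries, 9454764 to 10752818 in the snapc3 libraries and 9083980 to 10256820 in the control libraries. The matched introns held 331631 to 423819 reads in the lsm8 libraries, 468751 to 541435 in the snapc3 libraries and 461380 to 530658 in the control libraries. The control counts of every matched event were identical in both tables. Of the 8430 exons listed only in the lsm8 table, 92.8% had no skipping read in the controls, as did 93.5% of the 8197 exons listed only in the snapc3 table. An exon skipped in 1 mutant alone is thus largely outside the matched set, which under-represents skipping particular to either mutant. Unmatched exons held 57.2% of the mutant reads in the lsm8 table and 28.0% of those in the snapc3 table. Matched read totals are therefore no measure of depth, and gene sums and read shares rest on unequal parts of the reads. Neither lsm8 nor snapc3 had a matched exon, so the mutated genes could not be checked from junction reads. In the authors' deposited table for lsm8 mutants, lsm8 was higher than in wild type, with a log2 fold change of 2.87 (SE 0.10). The authors' deposited table for snapc3 mutants gave 2.19 (SE 0.07) for lsm8 and -1.39 (SE 0.19) for snapc3. An increase of the mutated transcript does not check the lsm8 label, whereas snapc3 was lower in its own mutant.

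Introns were retained more often in lsm8 mutants than in snapc3 mutants. Introns entered the test when they averaged 10 reads or more in the mutant libraries and both forms were seen. Of the 636 that did, 476 (74.8%) had the higher mean retention in lsm8 mutants. The retention level is the length-corrected share of junction reads that belong to the retained form. Averaged over the 631 introns with reads in every library, it was 38.8%, 38.6% and 38.0% in the lsm8 libraries, 35.0%, 35.5% and 35.5% in the snapc3 libraries and 35.1%, 35.1% and 36.3% in the controls. Each lsm8 library lay above each snapc3 library and above each control, while the snapc3 and control libraries overlapped. The means were 38.5 ± 0.416% in lsm8 mutants, 35.3 ± 0.281% in snapc3 mutants and 35.5 ± 0.697% in controls (SD, n = 3 each). The difference of 3.19 percentage points between the mutants reached p = 0.1 in a two-sided exact permutation test, the smallest p that 3 libraries against 3 can give.

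The shift was spread over many introns. The median intron was retained 1.65 percentage points more in lsm8 than in snapc3 mutants, and 0.74 more on the log2 scale of the retained to spliced ratio. In 204 introns (32.1%) every lsm8 library lay above every snapc3 library, against 22 (3.46%) in which every lsm8 library lay below. Against the controls, the median intron differed by 1.34 points in lsm8 mutants and by -0.158 points in snapc3 mutants. Introns of 81 to 100 bp were the most uniform class, with 135 of 156 (86.5%) higher in lsm8 mutants, compared with 123 of 175 (70.3%) up to 80 bp, 162 of 222 (73.0%) over 100 and up to 300 bp and 56 of 83 (67.5%) over 300 bp. The classes differed in their starting level, since median retention in snapc3 mutants was 3.95% at 81 to 100 bp and 24.9% up to 80 bp.

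**Figure D1:**
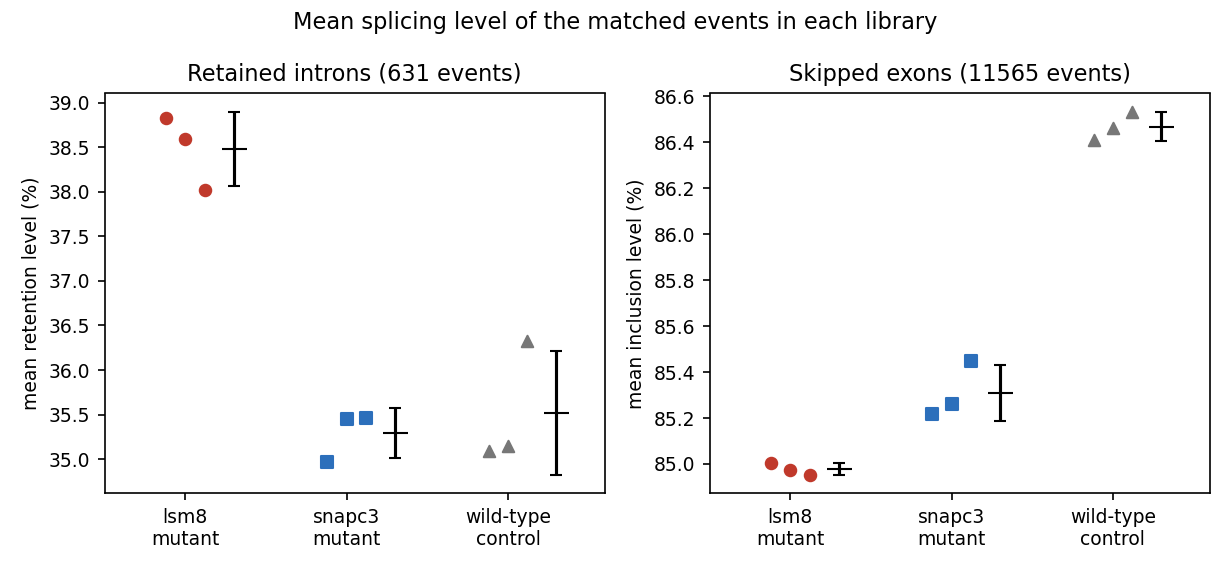
Mean retention level of 631 introns (left, %) and mean inclusion level of 11565 skipped exons (right, %) in each library. Points are libraries, and the bar beside them is the group mean with its SD. The 3 lsm8 libraries stand above all others for introns (38.0% to 38.8%), while both mutants stand below the controls for exons.

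Single introns were called at an adjusted p under 0.05 (limma, Benjamini-Hochberg over all introns tested) together with a difference of at least 10 percentage points. By this rule 34 of 636 introns (5.35%) differed, 31 of them (4.87%) retained more in lsm8 mutants and 3 (0.472%) retained less. The called introns with more retention had a median length of 81 bp, beside 98 bp for all introns tested. In 25 of these 31 the difference between mutants exceeded the whole range of the controls, beside 282 of the 636 introns tested. The minimum difference required for a call favours this. The number of calls fell when any library was left out, to 3, 8 and 12 without the first, the second or the third lsm8 library and to 19, 20 and 19 without the first, the second or the third snapc3 library. A quasi-binomial model of the read counts called 3 introns, all higher in lsm8 mutants. Only the calls in uspl1 and sqstm1 held with each library left out in turn.

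Among the introns named, that of uspl1 had the most reads, with a mean of 784 per library. The gene encodes a SUMO protease of Cajal bodies, where snRNPs mature. Its 284 bp intron (Zv9 chr10:37685364-37685647, plus strand) was retained at 97.3%, 96.9% and 96.6% in lsm8 libraries, 60.9%, 65.1% and 68.1% in snapc3 libraries and 76.4%, 76.5% and 83.8% in controls. All lsm8 libraries lay above all controls and all snapc3 libraries lay below them, with no overlap between any of the groups. The mutants differed by 32.3 points (limma, adjusted p = 0.00577). The lsm8 libraries held 1092, 1064 and 1544 reads of the retained form, against 286, 246 and 205 in the snapc3 libraries and 110, 130 and 124 in the controls. Reads of the spliced form were few in lsm8 mutants (15, 17 and 27) and more numerous in snapc3 mutants (92, 66 and 48), with 17, 20 and 12 in controls. As a gene, measured by its junction reads at matched exons, uspl1 was also higher in lsm8 mutants, as described with the snRNP genes.

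An intron of C19H6orf52 was mostly spliced in snapc3 mutants and controls and was retained in a larger share in lsm8 mutants. The 72 bp intron (Zv9 chr19:30383853-30383924, minus strand) was retained at 66.3%, 55.0% and 40% in lsm8 libraries, 10.7%, 7.89% and 8.33% in snapc3 libraries and 11.01%, 14.5% and 14.5% in controls. The lsm8 libraries stood apart from both other groups. The difference was 44.8 points (limma, adjusted p = 0.0127), and the adjusted p was 0.0521 without the first lsm8 library. NGRN, which encodes the mitochondrial protein neugrin, had a 66 bp intron (Zv9 chr8:25889496-25889561, plus strand) retained at 47.6%, 69.6% and 37.0% in lsm8 libraries, 5.54%, 5.81% and 5.98% in snapc3 libraries and 1.39%, 4.28% and 11.9% in controls. Again only the lsm8 libraries were high (difference 45.6 points, limma adjusted p = 0.0127, and 0.0557 without the first lsm8 library).

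In mlh3, a DNA mismatch repair gene, the 81 bp intron (Zv9 chr23:24879352-24879432, plus strand) was retained at 87.3%, 87.5% and 87.2% in lsm8 libraries, 42.3%, 50% and 63.6% in snapc3 libraries and 56.5%, 61.0% and 44.7% in controls. The lsm8 libraries were nearly identical and did not overlap with the others (35.3 points, limma adjusted p = 0.0197, up to 0.0742 with an lsm8 library left out). The 86 bp intron of kitb, a receptor tyrosine kinase gene, was retained at 58.3%, 28.9% and 30.9% in lsm8 libraries, 5.75%, 14.3% and 5.26% in snapc3 libraries and 12.9%, 12.9% and 13.04% in controls. All lsm8 libraries were above the controls, and the snapc3 libraries lay on both sides of them. The difference of 30.9 points had an adjusted p of 0.0384 (limma), which rose to as much as 0.0985 with a library left out.

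Other strongly changed introns followed a different pattern in the controls. In ccni, a cyclin gene, the 120 bp intron was retained at 14.9%, 37.5% and 42.0% in lsm8 libraries, 0.112%, 0.461% and 4.57% in snapc3 libraries and 0%, 36.9% and 34.1% in controls. In PPP2CA, which encodes a catalytic subunit of protein phosphatase 2A, the levels were 68.5%, 63.4% and 49.4% in lsm8 libraries, 22.0%, 13.7% and 33.3% in snapc3 libraries and 14.3%, 40.4% and 57.0% in controls. In both genes the controls were spread widely, some at the level of each mutant. In si:ch211-229g11.5 the controls were also spread, at 6.74%, 27.0% and 55.2%, but all lay below the lsm8 libraries (59.3% to 91.9%). The adjusted p of ccni was 0.0380 (up to 0.105 with a library left out) and that of PPP2CA was 0.0384 (up to 0.119, limma). The remaining large differences were in si:ch211-229g11.5 (60.2 points), si:ch211-218d20.15 (50.2 points) and si:dkeyp-33e11.1 (62.7 points), the last with a mean of only 11 reads per library, and each call was lost without some library.

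Introns retained less in lsm8 mutants were few. In sqstm1, which encodes the autophagy receptor p62, a 59 bp intron (Zv9 chr14:14451569-14451627, plus strand) was retained at 86.1%, 81.9% and 88.6% in lsm8 libraries, 100%, 100% and 100% in snapc3 libraries and 100%, 93.0% and 82.6% in controls. No snapc3 library had a spliced read, all lsm8 libraries had some, and the controls covered both states (-14.5 points, limma adjusted p = 0.00577). The others were clec16a (-38.9 points) and sort1a (-11.1 points). In sort1a the controls were again divided. In clec16a all controls (6.17% to 38.8%) lay below all snapc3 libraries (52.4% to 69.2%), with the lsm8 libraries at 14.3% to 25.5%. Among the smaller called differences, 2 neighbouring introns of rbm39a, a splicing factor gene, were retained 12.4 and 16.8 points more in lsm8 mutants. These were introns of 73 and 81 bp with a mean of 597 and 772 reads per library (limma, adjusted p = 0.0165 and 0.0244). Controls were at 3.20%, 2.23% and 8.80% for the first and 7.93%, 11.3% and 20.2% for the second, where they were divided between the mutants. Both calls were lost with some library left out.

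**Figure D2:**
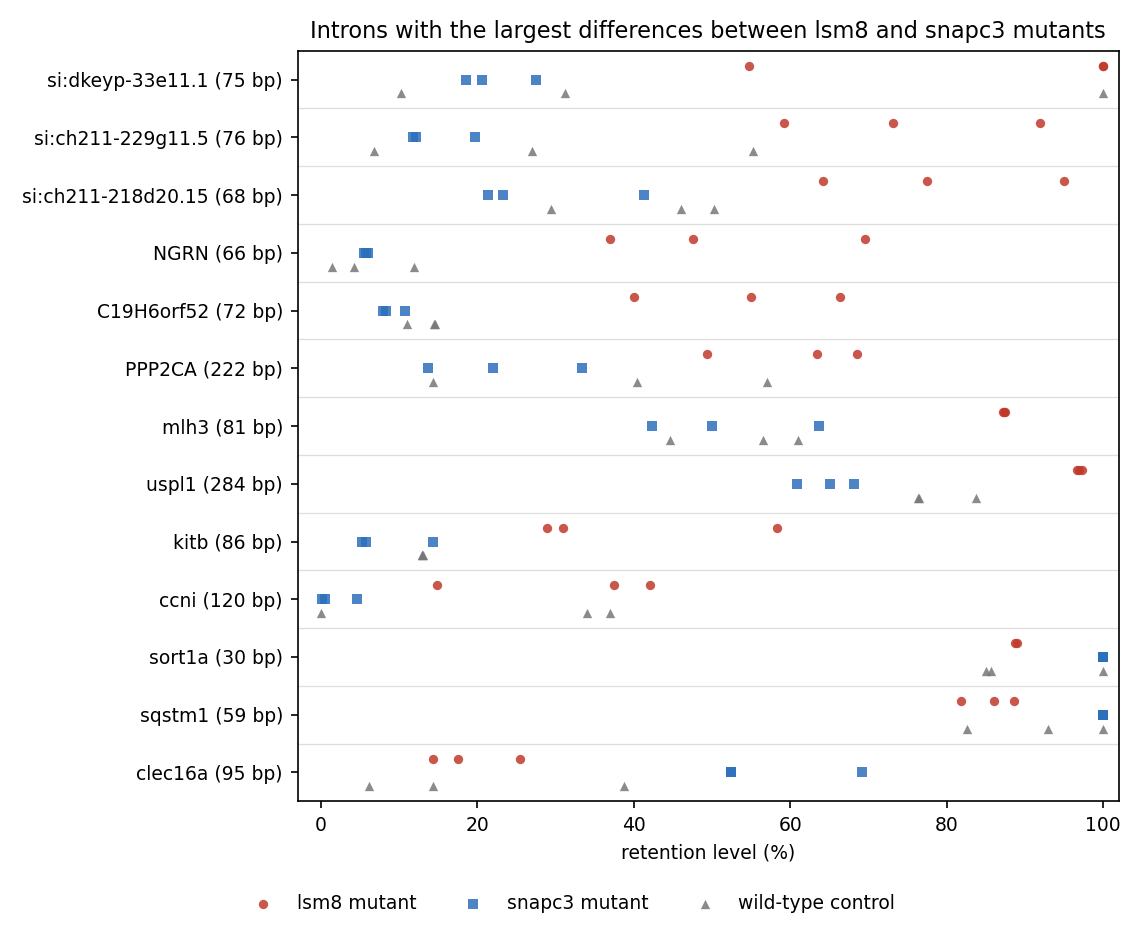
Retention level (%) of the 13 introns named by size of difference, 1 point per library, with lsm8 mutants above snapc3 mutants above controls within each row. In 10 rows the lsm8 points lie to the right of the snapc3 points and in 3 rows to their left, and the controls of ccni, PPP2CA and sqstm1 span the levels of both mutants.

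Inclusion of skipped exons was slightly lower on average in lsm8 mutants. Of 11657 exons tested, 5694 had the higher mean inclusion in lsm8 mutants and 5959 the lower, and the median difference was -0.0212 points, or -0.13 on the log2 scale of the included to skipped ratio. Mean inclusion over 11565 exons was 85.0%, 85.0% and 85.0% in lsm8 libraries, 85.2%, 85.3% and 85.4% in snapc3 libraries and 86.4%, 86.5% and 86.5% in controls. Each lsm8 library was below each snapc3 library and both mutants were below all controls. The means were 85.0 ± 0.0257% in lsm8 mutants, 85.3 ± 0.123% in snapc3 mutants and 86.5 ± 0.0626% in controls (SD, n = 3 each). The mutants differed by -0.331 points (p = 0.1, two-sided exact permutation test, the smallest p possible). Skipping reads made up 5.17% to 5.19% of matched exon reads in lsm8 libraries, 4.56% to 4.60% in snapc3 libraries and 4.53% to 4.67% in controls.

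Every lsm8 library lay above every snapc3 library in 871 exons (7.47%) and below in 1069 (9.17%). By the same rule as for introns, 173 of 11657 exons (1.48%) in 153 genes were called, 69 (0.592%) with more inclusion in lsm8 mutants and 104 (0.892%) with less. The difference exceeded 50 points in 28 of them. A quasi-binomial model of the read counts, which shares no estimate of the spread between exons, called none, with 783 exons at an unadjusted p under 0.05 against 1803 by limma. Without the first, the second or the third lsm8 library 57, 62 or 73 exons were called, and without the first, the second or the third snapc3 library 114, 133 or 108. With each library left out in turn, 41 of the 173 calls held, 16 with more and 25 with less inclusion in lsm8 mutants. Of the exons included more in lsm8 mutants, 68.1% had a length divisible by 3, compared with 53.8% of those included less and 53.03% of all tested. Exons of up to 30 bp made up 8.70%, 2.88% and 4.92% of these sets.

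Several exons were near fully included in 1 mutant and near fully skipped in the other. In sfswap, which encodes a regulator of splicing related to Drosophila suppressor-of-white-apricot, a 162 bp exon (Zv9 chr21:13341638-13341799, minus strand) was included at 97.4%, 96.3% and 98.7% in lsm8 libraries, 0.855%, 0% and 1.35% in snapc3 libraries and 0.426%, 55.2% and 52.3% in controls. The mutants lay at opposite ends, the first control at the level of the snapc3 libraries and the others midway (96.7 points, limma adjusted p = 6.86e-05). In ndufaf1, a complex I assembly factor gene, a 120 bp exon (Zv9 chr13:33470640-33470759, plus strand) was included at 2.91%, 7.25% and 3.01% in lsm8 libraries, 100%, 100% and 100% in snapc3 libraries and 87.1%, 34.4% and 10.1% in controls. A 61 bp form that shares its downstream boundary was included at 25.2%, 22.2% and 19.6% in lsm8 libraries, 100% in each snapc3 library and 95.7%, 52.3% and 32.6% in controls. The differences were -95.6 and -77.7 points (limma, adjusted p = 0.000960 and 0.000609), every control fell between the mutants, and reads may be shared by these overlapping events. The snapc3 libraries held only 2, 18 and 12 reads of the 120 bp event, all of the included form.

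CCDC66, a gene for a centrosome and cilium protein, and fancc, a Fanconi anaemia DNA repair gene, had exons that were mostly skipped in lsm8 mutants and mostly included in the other libraries. The 93 bp exon of CCDC66 (Zv9 chr22:42093626-42093718, minus strand) was included at 4.55%, 1.54% and 9.52% in lsm8 libraries, 89.2%, 93.8% and 82.8% in snapc3 libraries and 100%, 100% and 58.3% in controls. The 108 bp exon of fancc (Zv9 chr8:30982200-30982307, plus strand) was included at 12.9%, 8.95% and 18.3% in lsm8 libraries, 100%, 100% and 87.3% in snapc3 libraries and 89.6%, 85.5% and 69.6% in controls. All controls were nearer to the snapc3 libraries, and no lsm8 library overlapped with another group (-83.4 and -82.4 points, limma adjusted p = 0.000609 and 0.000888). The fancc exon rested on a mean of 19 reads per library.

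A 96 bp exon of apoob, which encodes an apolipoprotein O homologue, was at 50%, 43.8% and 51.4% in lsm8 libraries, 100% in each snapc3 library and 100%, 95.9% and 91.7% in controls. The lsm8 libraries again stood alone (-51.6 points, limma adjusted p = 0.000637). In the other direction, TMEM120A had a 66 bp exon at 94.5%, 87.9% and 92.5% in lsm8 libraries, 43.0%, 35.9% and 50.1% in snapc3 libraries and 93.3%, 100% and 100% in controls. Here the snapc3 libraries stood apart from all others (48.6 points, limma adjusted p = 0.00719).

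The cartilage gene matn4 (matrilin 4) carried events in both directions. A 123 bp exon (Zv9 chr6:52775051-52775173, plus strand) was included at 36.6%, 38.3% and 41.3% in lsm8 libraries, 0%, 0% and 0% in snapc3 libraries and 0.917%, 1.08% and 0.840% in controls. Inclusion was high in all lsm8 libraries and near absent elsewhere (38.7 points, limma adjusted p = 6.86e-05). An upstream exon of the same length was at 72.3%, 74.0% and 77.5% in lsm8 libraries, 40.4%, 35.8% and 45.8% in snapc3 libraries and 35.7%, 31.3% and 42.4% in controls. It differed by 33.9 points (limma, adjusted p = 0.0334, up to 0.115 with a library left out). Its skipping counts equalled those of the first exon in every library, so these events are not independent. A downstream exon was at 87.2%, 89.0% and 90.1% in lsm8 libraries, 100% in each snapc3 library and 100%, 99.8% and 100% in controls (-11.2 points, limma adjusted p = 0.00236). Another event on the first of these exons, with other flanking exons and a mean of 25.2 reads, was called at 20.8 points although its libraries overlapped, and its difference turned to -4.17 points with the third snapc3 library left out.

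Other exons with large differences are given by their points, lsm8 minus snapc3. Included more in lsm8 mutants were exons of si:dkey-115d18.2 (87.5 points), ncalda (70.2 points), babam1 (49.7 points) and GANC, whose overlapping events differed by 61.7 and 49.8 points. An exon of si:ch211-108d22.2 was counted in events of 100 and 83.3 points, each lacking a value in 1 library. The first of these events held only 7, 1 and 1 reads in snapc3 libraries, all skipping. The second held 1 skipping read in the first snapc3 library and 1 read of each form in the second. Included less were exons of scinla (-83 points, with a value in 2 of 3 lsm8 libraries), ERCC6L2 (-60.1 points), PGBD4 (-56.2 points), myo10l3 (-54.4 points), elovl1b (-52.4 points) and si:dkey-71b5.7 (-50.9 points). The scinla levels in lsm8 libraries rested on only 1 and 1 inclusion reads and 2 and 4 skipping reads. The calls of ncalda, babam1, si:ch211-108d22.2, myo10l3 and elovl1b were lost with some library left out (limma adjusted p up to 0.178). An exon of ttr, the transthyretin gene, differed by -14.1 points, and its call was lost likewise (up to 0.0774).

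**Figure D3:**
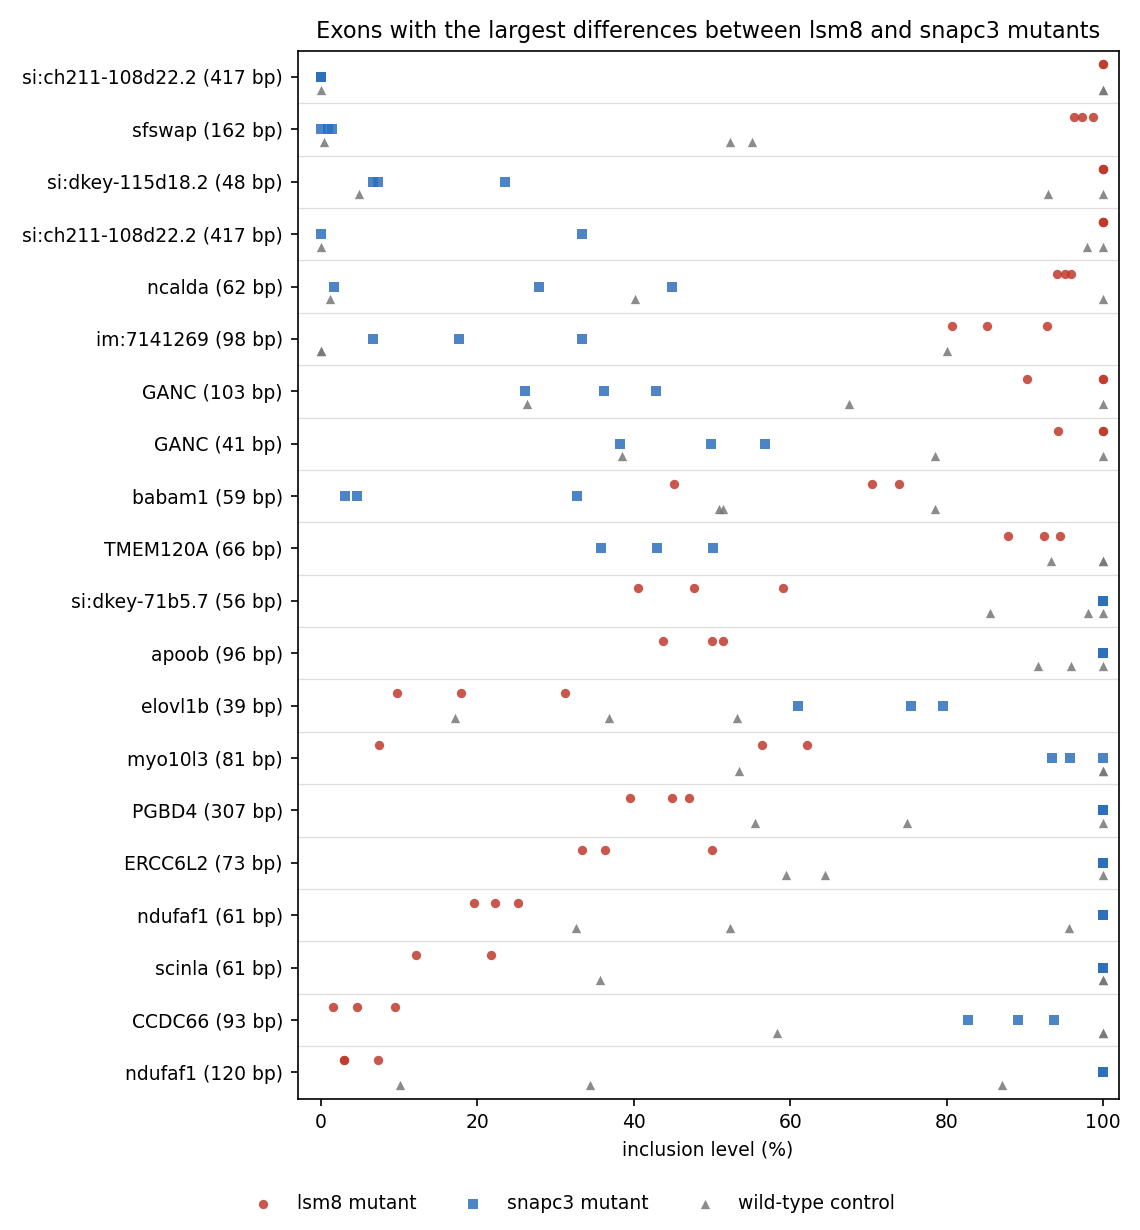
Inclusion level (%) of the 20 exons with the largest called differences and 20 or more reads on average, 1 point per library, with lsm8 mutants above snapc3 mutants above controls within each row. Mutants occupy opposite ends in sfswap and ndufaf1, and control libraries are often divided between them.

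Among genes of splicing regulation, srrm1, an SR-related coactivator, had a 126 bp exon included at 13.8%, 18.0% and 19.2% in lsm8 libraries, 75.3%, 55.3% and 44.8% in snapc3 libraries and 36.8%, 44.8% and 52.4% in controls (-41.4 points, limma adjusted p = 0.0240). In ccnl1a, a cyclin L gene, a 14 bp exon was at 49.0%, 51.0% and 52.1% in lsm8 libraries, 81.6%, 79.5% and 83.2% in snapc3 libraries and 62.7%, 76.2% and 72.1% in controls (-30.8 points, limma adjusted p = 0.0364). In both genes all lsm8 libraries were below all controls. In ccnl1a, moreover, all snapc3 libraries were above the controls. Neither call held when libraries were left out, with an adjusted p of up to 0.1003 for srrm1 and 0.122 for ccnl1a. A 137 bp exon of gemin5, which encodes the snRNA-binding subunit of the SMN complex, was included at 71.1%, 80.7% and 80% in lsm8 libraries, 100% in each snapc3 library and 98.2%, 98.3% and 100% in controls. Only the lsm8 libraries were low (-22.7 points, limma adjusted p = 0.0108, and 0.0626 without the first lsm8 library).

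In syt1a, which encodes the synaptic vesicle calcium sensor synaptotagmin, a 134 bp exon was at 65.7%, 66.0% and 65.2% in lsm8 libraries, 100% in each snapc3 library and 100%, 100% and 70.5% in controls (-34.4 points, limma adjusted p = 0.000609). The third control had the level of the lsm8 libraries and the other controls that of the snapc3 libraries. The titin genes of muscle had 5 called events. In ttna, 2 neighbouring exons of 81 bp differed in opposite directions, by 32.2 and -31.0 points, and each call was lost with each library left out. In ttnb, 3 events were called in both directions. One differed by -60.5 points at a mean of 10.7 reads, and another by 82.4 points at 13.3 reads, and both calls were lost with some library left out (limma adjusted p up to 0.0774). The best covered, on the same 285 bp exon as the second of these, was included at 26.1%, 27.4% and 20.8% in lsm8 libraries, 3.48%, 4.90% and 9.90% in snapc3 libraries and 2.74%, 3.88% and 1.75% in controls. The lsm8 libraries were above all others (18.7 points, limma adjusted p = 0.0379, up to 0.123 with a library left out). Calls in slc15a1b and hpda, genes of intestine and liver, concerned exons included at 98.8% or more in every lsm8 library and at 90.4% or less in every snapc3 library, with controls at 92.6% or more. Each of these calls was lost with most libraries left out in turn (adjusted p up to 0.0794, limma).

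The controls were divided between the mutants at 43.9% of the called exons, beside 50.9% of all exons tested. Among the 28 called exons that differed by more than 50 points, the controls were divided at 19 (67.9%). Among the 173, all controls were nearer to the snapc3 mean in 63 and nearer to the lsm8 mean in 30, while in 76 the controls were divided and in 4 a value was missing. Exons lower in lsm8 mutants had all controls nearer snapc3 mutants in 58 of 104 cases, and exons higher in lsm8 mutants had all controls nearer lsm8 mutants in 28 of 69 cases. Across all exons tested, the controls were nearer snapc3 mutants in 26.3% and nearer lsm8 mutants in 22.4%, shares not split by direction. Median control inclusion over these exons was 99.1%, and a fully included control is always nearer the mutant with more inclusion. Where the controls of a called exon were divided, the first control library was nearer snapc3 mutants in 68 of 76 exons and the third nearer lsm8 mutants in 66 of 76. Among all tested exons with divided controls, these counts were 3393 and 3450 of 5931. The tables give the counts of a group in a fixed order without naming the libraries, so the background of these libraries is not known. With the mutants in different backgrounds, the share of calls that belongs to the mutations and the share that belongs to the backgrounds cannot be told apart. The same holds for introns, where all controls were nearer snapc3 mutants in 14 of 34 called, nearer lsm8 mutants in 1 and divided in 18. Across all introns tested these shares were 30.7%, 13.4% and 55.7%.

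At the gene level, junction reads were summed over the matched exons of a gene, scaled by median-of-ratios factors and expressed as RPM (junction reads at a common library size), and fold changes were taken on the log2 scale with 0.5 reads added, which understates changes of low genes. Of 7925 genes averaging 10 or more reads, 1623 (20.5%) had an adjusted p under 0.05 (limma), 767 of them (9.68%) higher and 856 (10.8%) lower in lsm8 mutants. Over all genes tested, called or not, the libraries of the mutants did not overlap in 1526 genes higher (19.3%) and 1578 genes lower (19.9%). The median log2 fold change of all genes was 0.01. When libraries were scaled to total junction reads it was 0.31, and 2549 genes were then called higher and 342 lower. Directions are therefore given relative to the median gene. Total-read scaling moved every list median up by the same amount as that of all genes, so it does not test the order of the lists. Among highly expressed genes the libraries differed in composition, since pvalb1, the parvalbumin of fast muscle, took 6.50% to 6.75% of matched junction reads in lsm8 libraries, 11.1% to 13.4% in snapc3 libraries and 6.30% to 8.03% in controls. The number of called genes was 1032 without the third lsm8 library and 1099 to 1388 without another one. With each library left out in turn, 763 of the 1623 calls held.

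Genes of snRNA transcription, snRNP assembly and the spliceosome were among those higher in lsm8 mutants. The counts of these lists stand beside 9.68% of all genes called higher and 10.8% lower. snapc4, which encodes the largest subunit of the snRNA-activating protein complex, had 263, 215 and 216 junction RPM in lsm8 libraries, 57.9, 53.1 and 51.5 in snapc3 libraries and 12.8, 22.9 and 15.7 in controls. The order lsm8, snapc3, control held without overlap (log2 fold change lsm8 over snapc3 2.09, SE 0.12, limma adjusted p = 1.09e-06). uspl1 had 172, 174 and 184 RPM in lsm8 libraries, 51.0, 57.5 and 40.8 in snapc3 libraries and 20.7, 17.9 and 13.9 in controls (log2 fold change 1.84, SE 0.13, limma adjusted p = 4.83e-06). mettl16, the methyltransferase of U6 snRNA, had 195, 186 and 213 in lsm8 libraries, 103, 74.0 and 59.98 in snapc3 libraries and 19.9, 24.2 and 22.7 in controls (log2 fold change 1.36, SE 0.17, limma adjusted p = 0.000669). Both genes kept the same order of groups with no overlap.

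The La protein gene ssb, whose product binds the 3′ ends of new RNA polymerase III transcripts including U6, had 699, 797 and 721 RPM in lsm8 libraries, 426, 408 and 382 in snapc3 libraries and 222, 195 and 226 in controls (log2 fold change 0.86, SE 0.09, limma adjusted p = 6.93e-05). All 7 tested members of the list of LSm ring and U6 factors had a positive log2 fold change, with a median of 0.41, and 3 were called higher and none lower. The third call was lsm14aa, a component of cytoplasmic RNA granules outside the LSm ring (0.60, adjusted p = 0.0481, limma, lost without any of the libraries). The LSm subunits tested, lsm1 (not of the nuclear ring) and lsm4, had log2 fold changes of 0.08 and 0.20 and were not called. Of the 4 tested genes for Sm and related snRNP proteins only snrpd2 was called, with 529, 583 and 579 RPM in lsm8 libraries, 328, 315 and 302 in snapc3 libraries and 163, 147 and 136 in controls (log2 fold change 0.84, SE 0.09, limma adjusted p = 7.25e-05).

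Proteins of the U5 snRNP and the U4/U6.U5 tri-snRNP showed the most frequent calls of the spliceosome lists, with 6 of 8 tested members higher, none lower and a median log2 fold change of 0.74. eftud2, the U5 GTPase, had 226, 238 and 234 RPM in lsm8 libraries, 103, 109 and 95.7 in snapc3 libraries and 38.7, 38.2 and 41.9 in controls (log2 fold change 1.18, SE 0.10, limma adjusted p = 1.92e-05). snrnp27 had 404, 419 and 423 in lsm8 libraries, 243, 212 and 213 in snapc3 libraries and 91.3, 98.0 and 112 in controls (log2 fold change 0.90, SE 0.09, limma adjusted p = 6.93e-05). Both again had the order lsm8, snapc3, control without overlap, as did sart1 (log2 fold change 0.80) and usp39 (0.65), which act in tri-snRNP recruitment. snrnp40 (0.68) and txnl4a (0.81) completed the calls, and cd2bp2 (-0.36) and ppih (0.16) were not called.

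Of 10 tested genes for U2 snRNP and branch-site proteins, 5 were called higher and none lower, with a median log2 fold change of 0.44. sf3a2 had 441, 479 and 457 RPM in lsm8 libraries, 267, 258 and 266 in snapc3 libraries and 122, 109 and 109 in controls (log2 fold change 0.80, SE 0.08, limma adjusted p = 8.66e-05). sf1 (0.71), phf5a (0.62) and dhx15 (0.42) were among the other calls, and those of sf1 and phf5a were lost with some library left out (limma adjusted p up to 0.0651). Of 6 tested catalytic-stage factors, 2 were called higher. aqr, an intron-binding helicase, had 363, 303 and 307 in lsm8 libraries, 143, 156 and 135 in snapc3 libraries and 68.0, 62.6 and 59.6 in controls (log2 fold change 1.16, SE 0.11, limma adjusted p = 3.83e-05), and the groups did not overlap. cwc22, which deposits exon junction complexes, was the other (0.47, adjusted p = 0.0330, up to 0.1201 with a library left out, limma). In the SMN list uspl1 was joined by prmt5 (0.64), which methylates Sm proteins, and by ddx20 (0.51), a helicase of the SMN complex. For these, the controls lay at 44.3 to 45.3 and 22.1 to 27.9 RPM, above all snapc3 libraries for prmt5 (36.2 to 38.2), and both calls were lost with some library left out. The 5 members that were not called, gemin2, gemin5, gemin8, strap and tgs1, had log2 fold changes of -0.04 to 0.31. None of 7 Integrator genes, whose products cut the 3′ ends of snRNA precursors, was called by limma, with 4 at an unadjusted p under 0.05. With quantile scaling 1 was called higher and with total-read scaling 2, and none with voom weights.

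In the authors' deposited tables, each against the same wild-type controls, log2 fold changes of these genes were 3.82 in lsm8 mutants and 1.83 in snapc3 mutants for snapc4, 3.24 and 1.41 for uspl1, and 3.16 and 1.72 for mettl16. They were 2.48 in lsm8 mutants and 1.23 in snapc3 mutants for eftud2, 2.27 and 1.32 for aqr, and 2.03 and 1.22 for sf3a2. Each of these genes was raised in both mutants and by more in lsm8 mutants. They were named for their small p between the mutants, and both sources describe the same series. The larger rise in lsm8 mutants is therefore no separate support. For snrpa1, a snRNP protein gene, the deposited log2 fold changes were 1.01 in lsm8 mutants and 1.11 in snapc3 mutants. The authors' tables share their controls and list 851 genes for lsm8 mutants and 464 for snapc3 mutants.

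**Figure D4:**
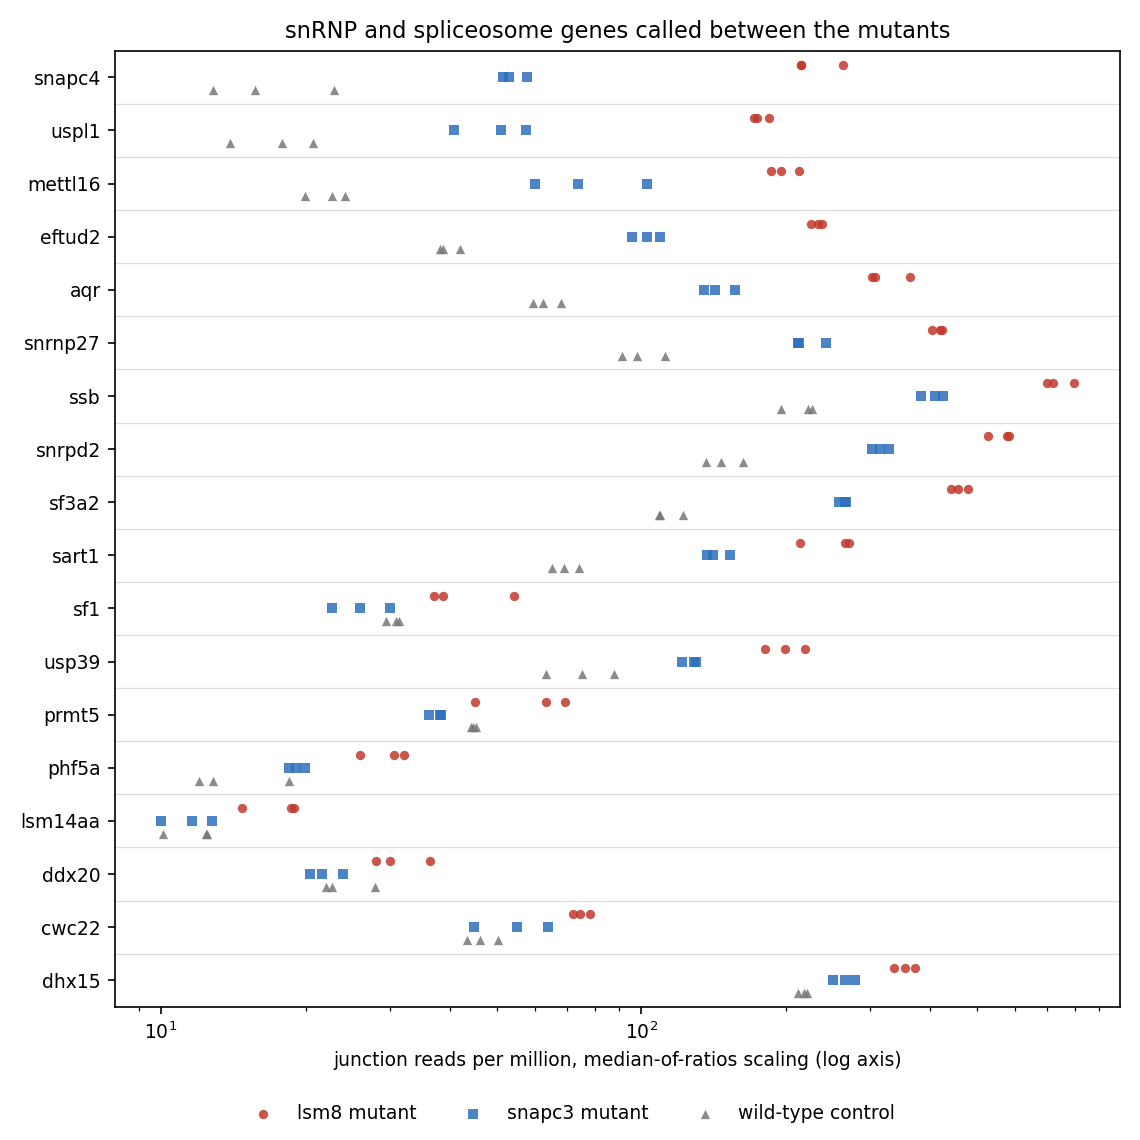
Junction RPM (log axis) of the called genes of snRNA transcription, snRNP assembly and the spliceosome, 1 point per library, ordered by log2 fold change of lsm8 over snapc3 mutants. From snapc4 to sart1 the 3 groups are stacked lsm8, snapc3, control without overlap.

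Among stress and DNA damage response genes, mdm2 was higher and mdm4 and ddb2 were lower in lsm8 mutants. mdm2, which encodes a ubiquitin ligase, had 392.2, 365 and 318 RPM in lsm8 libraries, 327, 232 and 224 in snapc3 libraries and 82.3, 94.8 and 96.2 in controls. Its lowest lsm8 and highest snapc3 libraries overlapped, and its log2 fold change of 0.48 (SE 0.15, adjusted p = 0.0426 by limma) lost its call without some libraries (up to 0.157). mdm4, which encodes a relative of that ligase, had 5.50, 5.32 and 8.32 in lsm8 libraries, 16.3, 13.5 and 19.2 in snapc3 libraries and 16.9, 17.9 and 27.5 in controls (-1.36, SE 0.24, limma adjusted p = 0.00275). ddb2, a sensor of ultraviolet damage, had 59.7, 67.9 and 62.6 in lsm8 libraries, 132, 118 and 124 in snapc3 libraries and 145, 126 and 110 in controls (-0.97, SE 0.11, limma adjusted p = 0.000121). For mdm4 and ddb2 only the lsm8 libraries were low.

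The called mitotic genes lay below all controls in snapc3 mutants and near them in lsm8 mutants. cenpf, a kinetochore gene, had 24.7, 24.8 and 20.6 RPM in lsm8 libraries, 8.77, 7.59 and 11.2 in snapc3 libraries and 19.6, 21.8 and 19.2 in controls (log2 fold change 1.36, SE 0.20, limma adjusted p = 0.000887). mki67, a marker of cycling cells, had 40.3, 43.9 and 40.1 in lsm8 libraries, 21.6, 18.5 and 27.6 in snapc3 libraries and 47.7, 45.0 and 40.2 in controls (0.89, SE 0.16, limma adjusted p = 0.00296). tpx2, a spindle assembly factor gene, showed the same arrangement (0.79, SE 0.15, limma adjusted p = 0.00362), as did cenpe (1.13, adjusted p = 0.0162, lost without the second lsm8 or the first snapc3 library). In whole embryos, fewer cells of a type and less RNA per cell cannot be told apart. Of 12 tested cell cycle genes 4 were higher and 1, orc1 (-0.96), lower, beside 9.68% and 10.8% of all genes. The call of orc1 was not made with total-read scaling. The listed replication genes mcm2, mcm7, pola1, cdt1 and rfc1 were not called, with log2 fold changes of -0.14 to 0.31. Replication genes outside the list were called too, such as pola2 (-1.12) and pold3 (-0.91), both lower in lsm8 mutants.

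Splicing regulators were called mainly in 1 direction among the hnRNP genes and in both among the SR protein genes. Of 40 tested hnRNP and tissue splicing regulator genes, 12 were higher and none lower, with a median log2 fold change of 0.28. With total-read scaling 28 were higher and with quantile scaling 15, and none lower in either. Of all 7925 genes, 767 were higher and 856 lower in the reported fit. With total-read scaling 2549 were higher and 342 lower, and with quantile scaling 717 and 769. hnrnpabb had 214, 258 and 233 RPM in lsm8 libraries, 138, 159 and 146 in snapc3 libraries and 190, 248 and 242 in controls, so that the snapc3 libraries were the low ones (0.67, SE 0.11, limma adjusted p = 0.00129). tia1, an RNA-binding regulator of splicing and translation, had 179, 179 and 178 in lsm8 libraries, 131, 121 and 129 in snapc3 libraries and 155, 152 and 163 in controls, which lay between the mutants (0.49, SE 0.09, limma adjusted p = 0.00390). tial1 (0.42) and hnrnpa1b (1.04) were called as well, the call of hnrnpa1b not without the third lsm8 library (limma adjusted p = 0.0711). Of 20 tested SR protein genes and their regulators, 3 were higher and 3 lower, beside 9.68% and 10.8% of all genes. With total-read scaling 12 were higher and none lower. srsf3a (0.71), srsf2a (0.69) and the cyclin gene ccnl1b (0.68) were higher, and the kinase genes clk2a (-0.74), clk4a (-0.53) and srpk1a (-0.35), whose products phosphorylate SR proteins, were lower. The clk4a call was not made with total-read scaling (-0.24).

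Cytosolic ribosomal protein genes were lower in lsm8 mutants. Of 44 tested, 42 were called lower and none higher, beside 10.8% and 9.68% of all genes, with a median log2 fold change of -0.53. rps6 had 2523, 2904 and 2656 RPM in lsm8 libraries, 4398, 4525 and 4544 in snapc3 libraries and 4271, 4095 and 3672 in controls (-0.74, SE 0.07, limma adjusted p = 4.93e-05), so that the lsm8 libraries were below and the snapc3 libraries above all controls. rpl22l1 had 330, 332 and 337 in lsm8 libraries, 592, 609 and 598 in snapc3 libraries and 919, 1024 and 987 in controls (-0.85, SE 0.08, limma adjusted p = 3.94e-05). The list was sensitive to scaling. With total-read scaling 30 members were lower and 1 higher (median -0.23), and with quantile scaling 14 were lower and 1 higher (median -0.09). As a share of matched junction reads these genes made up 14.5% to 15.4% in lsm8 libraries, 16.9% to 17.8% in snapc3 libraries and 18.6% to 19.2% in controls. Near-identical copies of ribosomal protein genes exist in the genome, so the assignment of their reads is uncertain.

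For the respiratory chain and muscle lists the counts in each direction rested on the scaling. With total-read scaling their medians (-0.0002 and -0.05) stayed below that of all genes (0.31). With quantile scaling they were -0.15 and -0.01, beside 0.0008 for all genes. Of all genes, 9.68% were called higher and 10.8% lower. Of 33 respiratory chain genes, 16 were lower and 1 higher, but 2 were lower and 6 higher with total-read scaling, and 5 lower and 1 higher with quantile scaling. atp5o had 492, 545 and 555 RPM in lsm8 libraries, 729, 812 and 704 in snapc3 libraries and 666, 624 and 557 in controls (-0.50, SE 0.09, limma adjusted p = 0.00271), and -0.20 with total-read scaling, not called. atp5g3b, at -0.46, turned to 0.027 with quantile scaling. Of 32 sarcomere genes, 17 were lower and 2 higher (median -0.35), compared with 7 lower and 6 higher with total-read scaling and 9 lower and 6 higher with quantile scaling. mylpfa, a fast muscle myosin light chain gene, had 19317, 18978 and 18651 in lsm8 libraries, 28084, 28732 and 27883 in snapc3 libraries and 19046, 15547 and 15034 in controls. Its snapc3 libraries were the high ones (-0.57, SE 0.05, limma adjusted p = 3.83e-05), and with quantile scaling its call was lost.

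Exocrine pancreas genes together took a smaller share of reads in both mutants than in controls, and 3 were lower in snapc3 mutants than in lsm8 mutants. Of 11 tested exocrine pancreas genes 3 were called, all higher in lsm8 than in snapc3 mutants, with a median of 0.72. Of all genes, 9.68% were called higher. rbpjl, a transcription factor gene of acinar cells, had 6.63, 6.06 and 4.95 RPM in lsm8 libraries, 1.22, 0.949 and 1.26 in snapc3 libraries and 5.61, 5.32 and 5.21 in controls (log2 fold change 2.31, SE 0.38, limma adjusted p = 0.00156). Here the lsm8 libraries overlapped with the controls and the snapc3 libraries did not. cpa1, a carboxypeptidase gene, had 12.4, 5.32 and 14.5 in lsm8 libraries, 3.77, 2.14 and 4.68 in snapc3 libraries and 87.4, 75.7 and 83.3 in controls (1.54, SE 0.41, limma adjusted p = 0.0250, up to 0.0978 with a library left out). ela2l, an elastase gene, had 146, 128 and 379 in lsm8 libraries, 29.7, 12.3 and 32.1 in snapc3 libraries and 422, 4392 and 3535 in controls (3.08, SE 0.63, limma adjusted p = 0.0377, up to 0.0985 with a library left out). The pancreas list as a whole took 0.0811% to 0.189% of matched junction reads in lsm8 libraries, 0.0385% to 0.0884% in snapc3 libraries and 0.876% to 1.396% in controls. Elastase genes have close paralogs, so their separate values are uncertain.

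Intestinal genes were called in both directions, 2 higher and 4 lower of 21 tested, beside 9.68% and 10.8% of all genes. With total-read scaling 3 were higher and 1 lower. rbp2a, a retinol-binding protein gene, had 713, 798 and 687 RPM in lsm8 libraries, 446, 357 and 547 in snapc3 libraries and 1124, 875 and 1127 in controls (0.72, SE 0.14, limma adjusted p = 0.00655). cyp3a65, a cytochrome P450 gene, had 23.4, 19.2 and 22.3 in lsm8 libraries, 51.1, 34.5 and 39.9 in snapc3 libraries and 786, 231 and 247 in controls (-0.93, SE 0.17, limma adjusted p = 0.00274). Both mutants were below all controls for each of these genes, with lsm8 mutants the less reduced for rbp2a and the more reduced for cyp3a65. cdh17 (-0.56) and tm4sf4 (-0.41) were also lower, neither call being made with total-read scaling, and that of tm4sf4 was lost with some library left out (limma adjusted p up to 0.0853). Of 22 liver genes 3 were higher and 2 lower, beside the same shares of all genes. f5 (1.08), uox (0.77) and C3 (-0.95) were among them. fabp10a, the liver fatty acid-binding protein gene, had 483, 408 and 618 in lsm8 libraries, 834, 952 and 859 in snapc3 libraries and 1575, 2001 and 826 in controls (-0.83, SE 0.14, limma adjusted p = 0.00280), the third control falling to the level of the snapc3 libraries.

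Called members of the erythroid, myeloid and photoreceptor lists were lower in lsm8 mutants, beside 9.68% of all genes called higher and 10.8% lower. Eye genes outside these lists were called in both directions, such as pde6g (1.47) higher and rpe65a (-0.94) lower. Of 2 erythroid genes tested, 1 was called. fech, the ferrochelatase gene of haem synthesis, had 36.4, 43.2 and 43.0 RPM in lsm8 libraries, 79.8, 88.6 and 76.2 in snapc3 libraries and 104, 90.2 and 77.3 in controls (-0.997, SE 0.12, limma adjusted p = 0.000315), with only the lsm8 libraries low. The myeloid genes cyba (-0.88) and mpx (-0.88), which encode an oxidase subunit and myeloperoxidase, were called lower among 4 tested, and each call was lost with some library left out (adjusted p up to 0.0865 and 0.110, limma) and with total-read scaling. Of 15 photoreceptor genes 3 were lower and none higher, compared with 1 and 1 with total-read scaling. The median log2 fold change of the 15 was 0.03, with 8 above 0, so the list as a whole was not shifted lower. rbp4l had 193, 206 and 277 in lsm8 libraries, 360, 541 and 670 in snapc3 libraries and 804, 529 and 423 in controls (-1.19, SE 0.26, limma adjusted p = 0.0275, up to 0.110 with a library left out). gnat2 (-0.48), the cone transducin gene, and guca1d (-1.12), a guanylate cyclase activator gene, were the others, and both calls were also lost with some library left out and with total-read scaling. None of 8 T lymphocyte and thymus genes was called by limma, with log2 fold changes from -0.56 to 0.56, and 3 had an unadjusted p under 0.05. With quantile scaling none was called, with voom weights 1 was, and with total-read scaling 3 were called higher and none lower.

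Among neuronal and synaptic genes 6 of 46 were higher and 7 lower, beside 9.68% and 10.8% of all genes, and 21 were higher and 2 lower with total-read scaling. The median log2 fold change was 0.02. snap25a, a vesicle fusion gene, had 232, 246 and 250 RPM in lsm8 libraries, 334, 376 and 351 in snapc3 libraries and 321, 321 and 317 in controls, and the controls lay between the mutants (-0.54, SE 0.09, limma adjusted p = 0.00163). gabrb2, a GABA receptor subunit gene, had 37.8, 37.1 and 37.5 in lsm8 libraries, 59.3, 68.2 and 54.8 in snapc3 libraries and 47.6, 54.9 and 61.7 in controls (-0.69, SE 0.13, limma adjusted p = 0.00304). The lsm8 libraries were below all others. stxbp1a (-0.63), gad1b (-0.55) and gad2 (-0.48) were also lower, and the calcium channel genes cacna1aa (0.64), cacna1ba (0.62) and cacna1da (0.53) were higher. Calls of stxbp1a and gad1b were not made with total-read scaling. Of 24 collagen and cartilage genes 5 were lower and none higher, beside the same shares of all genes. Among them were matn1 (-0.40), fn1b (-0.39), epyc (-0.51) and acanb (-0.59), none of which was called with total-read scaling. Under that scaling 9 members were higher and none lower, beside 2549 and 342 of all 7925 genes. The calls of fn1b, epyc and acanb were also lost with some library left out (adjusted p up to 0.0921, limma).

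**Figure D5:**
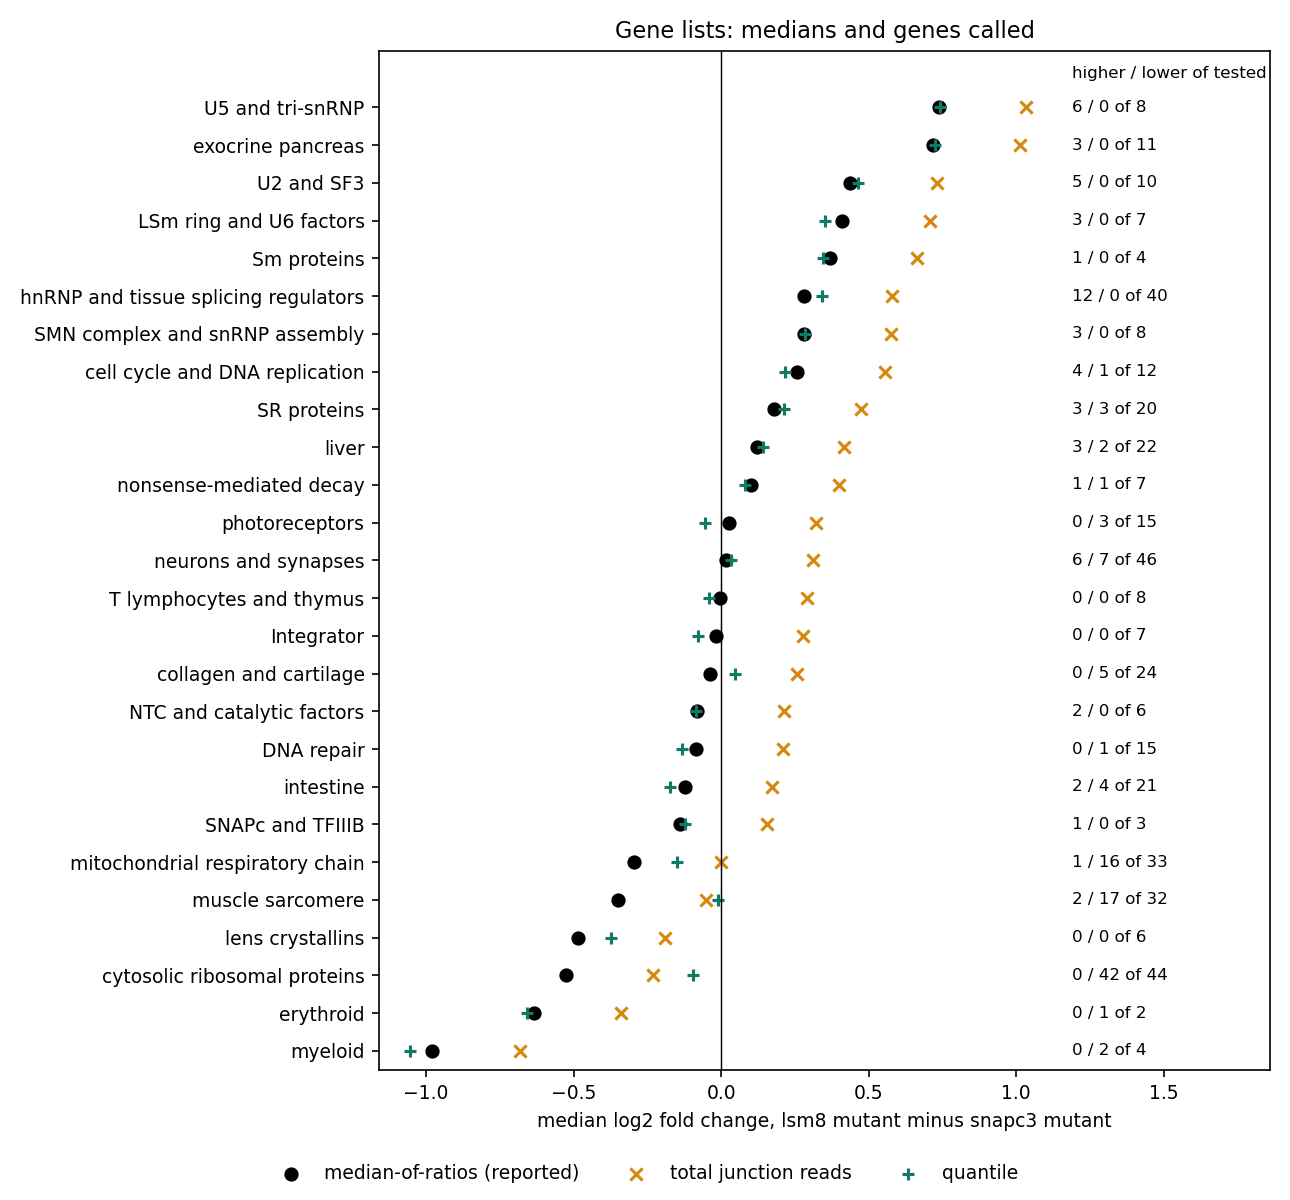
Median log2 fold change of lsm8 over snapc3 mutants for the gene lists shown under 3 scalings, with the number of members called higher and lower of those tested. The U5 and tri-snRNP list (0.74) and the U2 list (0.44) lie above 0 with each scaling. Total-read scaling raises every list and the median gene alike (0.01 to 0.31), so a list above 0 had to stay there. With it the muscle list moves from -0.35 to -0.05, still below the median gene.

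The genes with the largest differences included several that had only a few reads in 1 mutant. stap2b, a signalling adaptor gene, had 0, 0 and 0.450 RPM in lsm8 libraries, 21.0, 13.8 and 17.6 in snapc3 libraries and 18.0, 6.33 and 0.501 in controls, from 4 reads in lsm8 and 476 in snapc3 mutants. mhc1zca, a class I histocompatibility gene of which zebrafish carry many divergent copies, had 5.78, 6.95 and 14.0 in lsm8 libraries, 0, 0.474 and 0 in snapc3 libraries and 0, 10.2 and 7.31 in controls, from 213 and 4 reads in lsm8 and snapc3 mutants. me2, which encodes malic enzyme, had 76.2, 75.4 and 79.4 in lsm8 libraries, 3.47, 4.51 and 5.71 in snapc3 libraries and 3.32, 72.5 and 64.9 in controls (log2 fold change 4.09, SE 0.20, limma adjusted p = 6.26e-07). In me2 the first control had the level of the snapc3 libraries and the others that of the lsm8 libraries. pigp, a gene of glycolipid anchor synthesis, was the mirror case, with 5.78, 7.69 and 4.27 in lsm8 libraries, 60.1, 57.8 and 57.6 in snapc3 libraries and 47.0, 5.73 and 5.31 in controls (-3.33, SE 0.21, limma adjusted p = 2.19e-06).

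Further genes with the largest differences and more reads in lsm8 than in snapc3 mutants were si:dkey-71b5.2 (140 and 4 reads), ppp1r14c (89 and 3), fgfr1bl (112 and 10), CFP (279 and 13), ctps1b (138 and 3), zgc:66472 (210 and 19), si:dkey-19d21.2 (2257 and 171) and zgc:174178 (251 and 56). Those with fewer reads in lsm8 than in snapc3 mutants were st8sia1 (1 and 186 reads), zgc:112970 (9 and 262), si:ch73-181m17.1 (4 and 188), scinla (8 and 189), slc22a6l (2 and 73), MFAP4 (5 and 96), si:ch73-115f13.1 (29 and 488), si:dkeyp-82a1.5 (3 and 71) and TMEM241 (33 and 254). The calls of ctps1b, zgc:66472, si:dkey-19d21.2, zgc:174178 and zgc:112970 were lost with some library left out (limma adjusted p up to 0.144).

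The controls were divided between the mutants in 798 of the 1623 called genes (49.2%), beside 50.7% of all genes tested. All controls were nearer snapc3 mutants in 542 called genes (33.4%) and nearer lsm8 mutants in 283 (17.4%), beside 27.5% and 21.8% of all tested. Among all tested genes with divided controls, the first control was nearer snapc3 mutants in 2586 of 4018 and the third nearer lsm8 mutants in 2520. In the divided called genes the first control was nearer snapc3 mutants in 636 of 798 and the third nearer lsm8 mutants in 636 of 798. PGBD4 was not of this kind, with 17.9, 25.9 and 25.4 RPM in lsm8 libraries, 1.63, 1.305 and 2.63 in snapc3 libraries and 2.404, 3.52 and 2.80 in controls (3.64, SE 0.31, limma adjusted p = 2.35e-05). It was high in lsm8 mutants alone. In the opposite direction si:ch211-63o20.10 had 0.282, 0.296 and 0.112 in lsm8 libraries, 7.44, 11.7 and 10.7 in snapc3 libraries and 7.21, 6.53 and 6.81 in controls, from 5 reads in lsm8 and 266 in snapc3 mutants, and was near absent in lsm8 mutants alone (-5.14, SE 0.52, limma adjusted p = 7.15e-05). The authors' deposited table for lsm8 mutants gave log2 fold changes of 3.02 for PGBD4 and -4.19 for si:ch211-63o20.10, relative to wild type.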

How the data were processed

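Whole zebrafish embryos were sequenced, 3 libraries per group, from total RNA made into stranded libraries depleted of ribosomal RNA, per the labels' protocols. The submitters' processing notes name limma 3.26.3, featureCounts 1.4.5-p1, Bowtie2 2.2.3 and TopHat2 2.0.13 and the genome build Zv9. They name no tool for the splicing tables. Each cell of the splicing tables deposited by the authors joins, with commas, the inclusion or skipping junction read counts of 3 libraries, so a test made for a plain count table was not used. The authors' inclusion levels were recomputed from these counts and form lengths to within 0.0011. Libraries are numbered by their place in a cell, which is not tied to a replicate label. The expression tables deposited by the authors give log2 fold changes and mean log2 expression, a score (the moderated statistic of their fit) and adjusted p-values.

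Inclusion and retention levels were shares of reads, each form divided by its length. Events were fitted with limma 3.58.1 (trend and robust options, R 4.3.3) on the log2 ratio of the forms with a pseudocount of 0.5, in the 6 mutant libraries. They were called at a Benjamini-Hochberg adjusted p under 0.05 together with a difference of 10 points. Genes were fitted likewise on log2 RPM. A read can be counted in several events of a gene. Library means were compared by exact permutation tests (SciPy 1.17.1). The scripts were tested on simulated data. Libraries held between 6258211 and 10752818 matched exon reads, and a level near 0% or 100% rests on few reads of the rarer form. Items to name were the 12 genes with the largest called differences in each direction, up to 4 genes per list by smallest p, the 10 largest called introns and exons in each direction (exons averaging 20 reads or more) and called exons of list members. The text gives values for a part of these, and the others stand in the counts. Other list members and other items given by value were chosen after their values were seen. The members, the 27 gene lists and the tests were chosen with earlier results of these data known. Alternatives to these choices are in the closing section. Libraries of the fourth group were not used here, no sequence is shown, and some results are not reported here.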

Additional observations from a re-analysis of the deposited data

Results flagged for a closer look

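Among the exons, introns and genes named, some called differences had every lsm8 library on one side of all controls and every snapc3 library on the other. Whether the departures from the controls differ was not tested in itself, and the controls are shared by both departures. Among the exons named these were both overlapping events of ndufaf1 (-95.6 and -77.7 points, lsm8 minus snapc3), and those of matn4 (38.7 points), ttna (32.2 points) and ccnl1a (-30.8 points). Called exons not named elsewhere also had it, such as one of lrmp (-40.1 points). The matn4 controls held only 0.840% to 1.08% inclusion, so that the snapc3 side of that pattern is the absence of inclusion reads. Among introns they were those of C19H6orf52 (44.8 points) and uspl1 (32.3 points). For C19H6orf52 the controls at 11.01% to 14.5% stood just above the snapc3 libraries at 7.89% to 10.7%.

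The named genes with this arrangement were si:ch211-63o20.10 (log2 fold change -5.14), tia1 (0.49), the tropomyosin gene tpm1 (-0.56), snap25a (-0.54), rps6 (-0.74), atp5g3b (-0.46) and atp5o (-0.50). Gene positions were read with median-of-ratios scaling alone. The atp5g3b difference changed sign with quantile scaling, and atp5o was not called with total-read scaling. By read share, ribosomal protein genes were lower in snapc3 libraries (16.9% to 17.8%) than in controls (18.6% to 19.2%), unlike rps6 here. Across all called genes the mutants lay on opposite sides of all controls in 145 of 1623, and across called exons in 12 of 173. Across all features tested, called or not, this held in 167 of 7925 genes and 39 of 11657 exons.

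Exons listed in only 1 of the tables took no part in the comparison. Among those listed only for lsm8 mutants, 266 had at least 10 skipping reads in the mutant and none in the controls. Among those listed only for snapc3 mutants there were 348.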

How the results depend on the processing

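The mean levels do not depend on the pseudocount, the model or the minimum difference, so these alternatives do not test them. The median log2 difference, lsm8 minus snapc3, was 0.61 to 0.78 for introns over the alternatives. For exons it was -0.16 to -0.06. Against 173 called exons, 277 were called with a pseudocount of 2, 315 with no minimum difference, 0 with a quasi-binomial model (783 at an unadjusted p under 0.05) and 57 to 133 with a library left out. Against 34 called introns, 53 were called with a pseudocount of 2, 64 with no minimum difference, 15 with a minimum of 20 points, 3 with a quasi-binomial model and 3 to 20 with a library left out. Against 1623 called genes, 2891 were called with total-read scaling, 387 with a minimum log2 fold change of 1 and 1032 to 1388 with a library left out. Of the items named, 20 of 38 exons, 11 of 13 introns and 27 of 128 genes lost a call without some library. Under any alternative at all, 38 exons, 12 introns and 72 genes lost one, the exons all doing so under the quasi-binomial model. The log2 fold change of atp5g3b turned to 0.027 with quantile scaling. Apart from fewer libraries or a changed threshold, the cause of these moves was not tested. No paired analysis was possible because the counts of a group are not tied to replicate numbers. With 3 libraries per mutant, each in its own background, and unmatched exons left out, the comparison is limited to events seen in both tables, and rare forms rest on few reads.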

Other observations

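Gene lists not described above are given beside 20.5% called of all genes. Of 7 tested genes of nonsense-mediated decay and its known targets, gas5, a snoRNA host gene, was higher in lsm8 mutants (log2 fold change 1.09, adjusted p = 0.0186, up to 0.0754 with a library left out, limma) and pabpc1a, a poly(A)-binding protein gene, was lower (-0.35, limma adjusted p = 0.00550). Of 15 DNA repair genes only ercc1, a nuclease subunit gene, was called (-0.54, adjusted p = 0.0425, up to 0.148 with a library left out, limma). None of 6 lens crystallin genes was called by limma, with 1 at an unadjusted p under 0.05, 1 called higher with total-read scaling and none with quantile scaling or voom weights. Of 3 tested genes of the SNAPc and TFIIIB list only snapc4 was called, and znf143a (-0.14) and SNAPC2 (-0.16) were not.

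cdc5l, a core gene of the Prp19 complex, varied within groups, with 9.87, 11.8 and 78.6 RPM in lsm8 libraries, 128, 184 and 114 in snapc3 libraries and 130, 119 and 10.02 in controls. All lsm8 libraries were below all snapc3 libraries, and the third control was at the level of the first lsm8 library (log2 fold change -2.73, adjusted p = 0.133, limma). Without the third lsm8 library the log2 fold change was -3.68 with an adjusted p of 1.04e-05 (limma), and without any other single library the adjusted p was 0.241 to 0.282 (limma).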
